A study of Mus musculus with 8 samples.

Results

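The 7 genes described here, Tcf7l2, Lef1, Rora, Slc17a6, Gpr151, Prkcd and Synpo2, are known for strong expression in the thalamus, the habenula or both, which lie close to the hippocampus and can be carried into a hippocampal dissection. They were chosen by name for that property. All 7 were found among the 46078 gene entries of a count table of mouse hippocampus, and all 7 passed the filter on low counts, with 15859 genes in all. RNA was sequenced from 4 libraries of Cre mice, which carry the Tg(Camk2a-cre)2Gsc transgene on 1 allele, and 4 libraries of WT mice without it. All mice were C57BL/6J and 9 weeks old. The transgene, named CamiCre in the labels, uses Camk2a regulatory DNA to express Cre recombinase in excitatory neurons of the forebrain, and the labels name no floxed allele in either group. Nothing in the labels ties a library to a single mouse or to pooled tissue, so the p-values measure the spread between these libraries, which may be partly technical.

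The thalamus relays sensory and motor signals to the cortex, and the habenula links the forebrain to monoamine nuclei of the midbrain. Excitatory neurons of both load glutamate into vesicles mainly through VGLUT2, the product of Slc17a6, whereas pyramidal and granule neurons of the hippocampus rely mainly on VGLUT1, the product of Slc17a7. Tcf7l2 and Lef1 encode transcription factors that bind DNA with beta-catenin when Wnt signalling is active, and Tcf7l2 shapes the identity of thalamic and habenular neurons. These genes are not restricted to those nuclei. Outside them Tcf7l2 is active in oligodendrocytes that begin to myelinate, Lef1 in brain endothelium, Prkcd in myeloid cells, Synpo2 in smooth muscle and Rora in many neurons and in astrocytes.

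The libraries held 21339996 to 27826871 counts for Cre and 24289522 to 26950207 for WT. Levels are given as normalised CPM, counts scaled to a library size of 1000000, and at this depth 3 counts correspond to 0.107 to 0.142 CPM. Over all 15859 genes with enough counts to test, 5 had an adjusted p under 0.05 in the quasi-likelihood test of edgeR, 4 of them higher and 1 lower in Cre, which is 0.0315% of the genes. WT replicate 1 stood apart for markers of choroid plexus, the secretory epithelium of the ventricles. Its 7 tested choroid plexus markers summed to 1589 CPM, against 125 to 161 CPM in Cre libraries and 124 to 148 CPM in the other WT libraries. For none of the 7 genes was WT replicate 1 the highest or the lowest library. The 9 listed markers of hippocampal excitatory neurons summed to 2625 to 2825 CPM in Cre libraries and 2731 to 2915 CPM in WT libraries. Most of that sum was Slc17a7, at a mean of 1631 CPM in Cre and 1688 CPM in WT. No other tissue was sequenced for comparison, so these sums do not by themselves establish hippocampal identity.

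Some defining markers of the thalamus and habenula outside the 7 genes had few counts. Those named here were added after their values were seen, as were Chrna3 and Chrnb4 below. The homeobox gene Gbx2, which patterns the thalamus, had 0 to 2 counts in Cre libraries and 0 to 1 in WT libraries. Shox2, another homeobox gene of thalamic neurons, had 0 to 4 counts in Cre libraries and 1 in each WT library. Pou4f1, which encodes the factor BRN3A that defines medial habenular neurons, had 0 to 4 counts in Cre libraries and 0 to 2 in WT libraries. All 3 are at or near 0 in both groups.

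The habenular nicotinic receptor subunit genes were also scarce. Chrna3 had 5 to 16 counts in Cre libraries and 5 to 14 in WT libraries, and Chrnb4 had 2 to 7 counts in Cre libraries and 1 to 6 in WT libraries. Most listed genes of the same nuclei had more counts, and 11 of 13 thalamic and 8 of 13 habenular genes passed the filter on low counts. Amotl1, of the thalamic list, stood at 29.1 ± 2.07 CPM in Cre and 29.4 ± 2.41 CPM in WT. Nwd2 stood at 40.6 ± 2.94 CPM in Cre and 42.1 ± 3.72 CPM in WT, and Ntng1, which encodes the axonal adhesion protein netrin-G1, at 37.3 ± 0.68 CPM in Cre and 41.2 ± 2.73 CPM in WT (SD, n = 4 each). The listed genes of these nuclei thus ranged from near 0 to the levels of Ntng1 and Nwd2, and the part of thalamic or habenular tissue in the levels of the 7 genes was not tested. The genes are described by name.

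**Figure D1:**
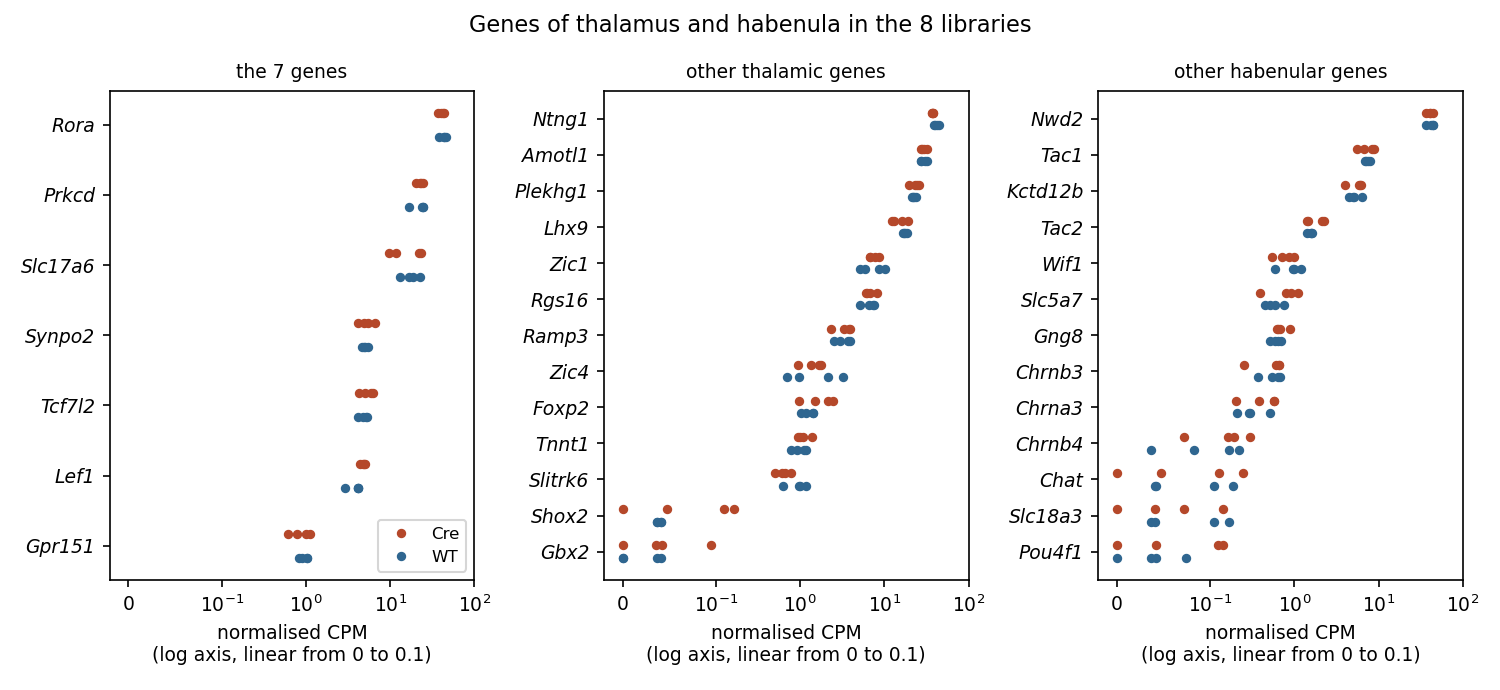
Normalised CPM (horizontal log axis, linear from 0 to 0.1) of the 7 genes and of 13 other thalamic and 13 other habenular genes, with each point 1 library of Cre (upper row, red) or WT (lower row, blue). Gbx2, Shox2 and Pou4f1 lie near 0 in both groups, while Rora, Ntng1 and Nwd2 lie between 36 and 46 CPM.

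Set per kb of exon length, the levels formed an upper set of 3 genes and a lower set of 4. Prkcd had the highest mean, at 4.08 ± 0.31 CPM per kb in Cre and 4.03 ± 0.67 in WT. Rora followed at 3.108 ± 0.23 CPM per kb in Cre and 3.26 ± 0.25 in WT, and Slc17a6 at 3.09 ± 1.31 in Cre and 3.29 ± 0.72 in WT. Rora and Slc17a6 overlapped between their libraries in both groups, so their order is not resolved. The same holds for Prkcd and Slc17a6, which overlapped in both groups, while Prkcd and Rora overlapped in WT but not in Cre.

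The lower set began well below these levels. Tcf7l2 had 0.61 ± 0.10 CPM per kb in Cre and 0.55 ± 0.06 in WT, Lef1 had 0.54 ± 0.03 in Cre and 0.44 ± 0.07 in WT, and Gpr151 had 0.49 ± 0.13 in Cre and 0.53 ± 0.06 in WT. Synpo2 was lowest, at 0.41 ± 0.08 CPM per kb in Cre and 0.38 ± 0.02 in WT. Neighbours in this lower order, taken from Cre, overlapped in Cre, and in WT all did except Gpr151 and Synpo2.

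Between the genotypes, 0 of the 7 genes were called by edgeR, by DESeq2 or by limma voom, against a background of 0.0315% of all genes called. At an unadjusted p under 0.05 there was 1, Lef1, by edgeR and by limma voom and 0 by DESeq2, where 3.5% of all tested genes were under that value by edgeR. Fold changes lay above 0 for 4 genes and below 0 for 3. Their median log2 fold change was 0.02, and that of all genes tested was 0.00036. The adjusted p was 0.999 for each of the 7 genes with the edgeR test.

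Lef1 was the gene with the clearest difference in level. It had 4.77, 4.82, 5.08 and 4.36 CPM in Cre replicates 1 to 4, against 4.15, 4.19, 4.11 and 2.92 CPM in WT replicates 1 to 4. Every Cre library lay above every WT library, with Cre replicate 4 only just above WT replicate 2, and WT replicate 4 lay far below the rest. Groups failed to overlap in 2.31% of all tested genes.

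The fold change of Lef1 was 1.24 (95% confidence interval 1.01 to 1.52), or 0.31 (SE 0.14) in log2, and it was not called after adjustment. An exact permutation test over the libraries, 2-sided and on log2 CPM, gave p = 0.0286, the smallest that 4 libraries against 4 can give. Without WT replicate 4 the log2 fold change was 0.20 (SE 0.12) and the unadjusted edgeR p was 0.136. That p was also above 0.05 without Cre replicate 1 (0.065), Cre replicate 2 (0.077) or Cre replicate 3 (0.108). It stayed under 0.05 when any other single library was left out. DESeq2 on all libraries gave an unadjusted p of 0.053. The authors' deposited table gives Lef1 a log2 fold change of 0.31 and a p of 0.0482. On chromosome 3 Lef1 occupies 131110471 to 131224356 of the plus strand (GRCm38), and 13.7% of its exon bases are shared with an annotated antisense gene, whose reads can be told apart only if strand was used in counting.

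Endothelial markers, given because Lef1 is also an endothelial gene, did not separate the genotypes. Of 10 tested, 4 lay above 0 and 6 below, and their summed level was 164 to 198 CPM in Cre libraries and 154 to 194 CPM in WT libraries. WT replicate 4, the lowest library for Lef1, was also the lowest for endothelial markers, at 154 CPM. Other libraries differed in order. WT replicates 1 and 2, at 189 and 194 CPM, lay above Cre replicates 2, 3 and 4, at 173, 177 and 164 CPM, but below them for Lef1. The part of endothelium in the level of Lef1 was not tested. In whole tissue, fewer cells of a type and less RNA per cell cannot be told apart.

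Tcf7l2 had 5.90, 4.21, 5.04 and 6.20 CPM in Cre replicates 1 to 4, against 4.70, 4.15, 5.36 and 5.14 CPM in WT replicates 1 to 4. The groups overlapped, with Cre replicates 1 and 4 above every WT library and Cre replicate 2 near the lowest, WT replicate 2. Its log2 fold change was 0.15 (SE 0.14), with an interval in fold of 0.896 to 1.37. Markers of newly formed oligodendrocytes summed to 218 to 263 CPM in Cre libraries and 205 to 224 CPM in WT libraries. Of these 5 markers 4 lay above 0. General oligodendrocyte markers lay above 0 for 8 of 8 genes, with a median log2 fold change of 0.15. An unadjusted p under 0.05 was reached by 2 of them with edgeR and limma voom and by 4 with DESeq2, and 0 were called. They summed to 4043 to 5184 CPM in Cre libraries and 4021 to 4471 CPM in WT libraries. Both lists were highest in Cre replicate 1, while Tcf7l2 was highest in Cre replicate 4. The part of oligodendrocytes in the level of Tcf7l2 was not tested. The gene lies on chromosome 19 at 55741820 to 55933654, plus strand.

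Of the other TCF and LEF factors, Tcf7l1 stood at 4.76 ± 0.41 CPM in Cre and 5.003 ± 0.30 CPM in WT, and Tcf7 at 2.29 ± 0.60 CPM in Cre and 2.35 ± 0.39 CPM in WT. In the wider Wnt list, 23 of 24 listed genes were tested, 0 were called by edgeR, DESeq2 or limma voom, 10 lay above 0 and 13 below, and the median log2 fold change was -0.01. The single Wnt gene with an unadjusted p under 0.05 was Fzd3, a Wnt receptor gene, at 24.9 ± 0.84 CPM in Cre and 27.6 ± 0.97 CPM in WT (log2 fold change -0.15, SE 0.05). Axin2, a common target gene of Wnt signalling, had a log2 fold change of 0.04, and Ctnnb1, the beta-catenin gene, had 523 ± 14.4 CPM in Cre and 521 ± 10.7 CPM in WT.

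Rora, which encodes a nuclear receptor of the retinoid-related orphan family, had the smallest SD of log2 CPM over the 8 libraries among the 7 genes, 0.11. Its levels were 36.5, 42.1, 43.4 and 40.5 CPM in Cre replicates 1 to 4, against 38.0, 45.6, 43.0 and 43.8 CPM in WT replicates 1 to 4. Replicate 1 was the lowest library of each genotype and the groups overlapped. The log2 fold change was -0.07 (SE 0.07), and the interval of the change ran from -13.5% to 5.26%. Rora covers 68653786 to 69388246 on the plus strand of chromosome 9.

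Markers of astrocytes, which also express Rora, summed to 4863 to 5572 CPM in Cre libraries and 4533 to 4828 CPM in WT libraries. Of these 8 markers 7 lay above 0, 3 had an unadjusted p under 0.05 and 0 were called by edgeR, DESeq2 or limma voom. The direction was the opposite of that of Rora, and the part of astrocytes in its level was not tested. Among its relatives, Rorb stood at 20.7 ± 0.48 CPM in Cre and 19.3 ± 1.30 CPM in WT. ROR receptors act on the circadian loop, where they activate Arntl, the gene of the clock factor BMAL1. Arntl had 27.6 ± 2.47 CPM in Cre and 30.4 ± 2.81 CPM in WT (log2 fold change -0.14, SE 0.08). Of 11 clock genes 0 were called by the same 3 tools, 6 lay above 0 and 5 below, and 1 had an unadjusted p under 0.05 with edgeR, the clock output gene Dbp, with 79.2 ± 3.85 CPM in Cre and 71.9 ± 5.54 CPM in WT.

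Slc17a6 varied most between libraries. It had 9.54, 11.7, 22.0 and 23.5 CPM in Cre replicates 1 to 4, against 13.2, 22.5, 18.6 and 16.7 CPM in WT replicates 1 to 4. Cre replicates held both extremes, a low pair in replicates 1 and 2 and a high pair in replicates 3 and 4, while WT replicates 1, 3 and 4 lay between the pairs and WT replicate 2 lay within the high pair. The highest library was 2.46 times the lowest. These values rest on 228 to 616 counts per Cre library and 357 to 608 per WT library, at which counting alone gives a coefficient of variation of 4.79%, while the observed one was 42.5% in Cre and 21.9% in WT.

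Among the 2181 genes whose mean log2 CPM lay within 0.5 of that of Slc17a6, itself included, its SD over the 8 libraries ranked 3rd. The genotypes did not separate. Slc17a6 had a log2 fold change of -0.08 (SE 0.25), with an interval in fold of 0.653 to 1.37. Its sign followed single libraries, at 0.11 without Cre replicate 1, 0.05 without Cre replicate 2 and 0.06 without WT replicate 2, against -0.28 without Cre replicate 4. The gene lies on chromosome 7 at 51622006 to 51671119, plus strand.

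**Figure D2:**
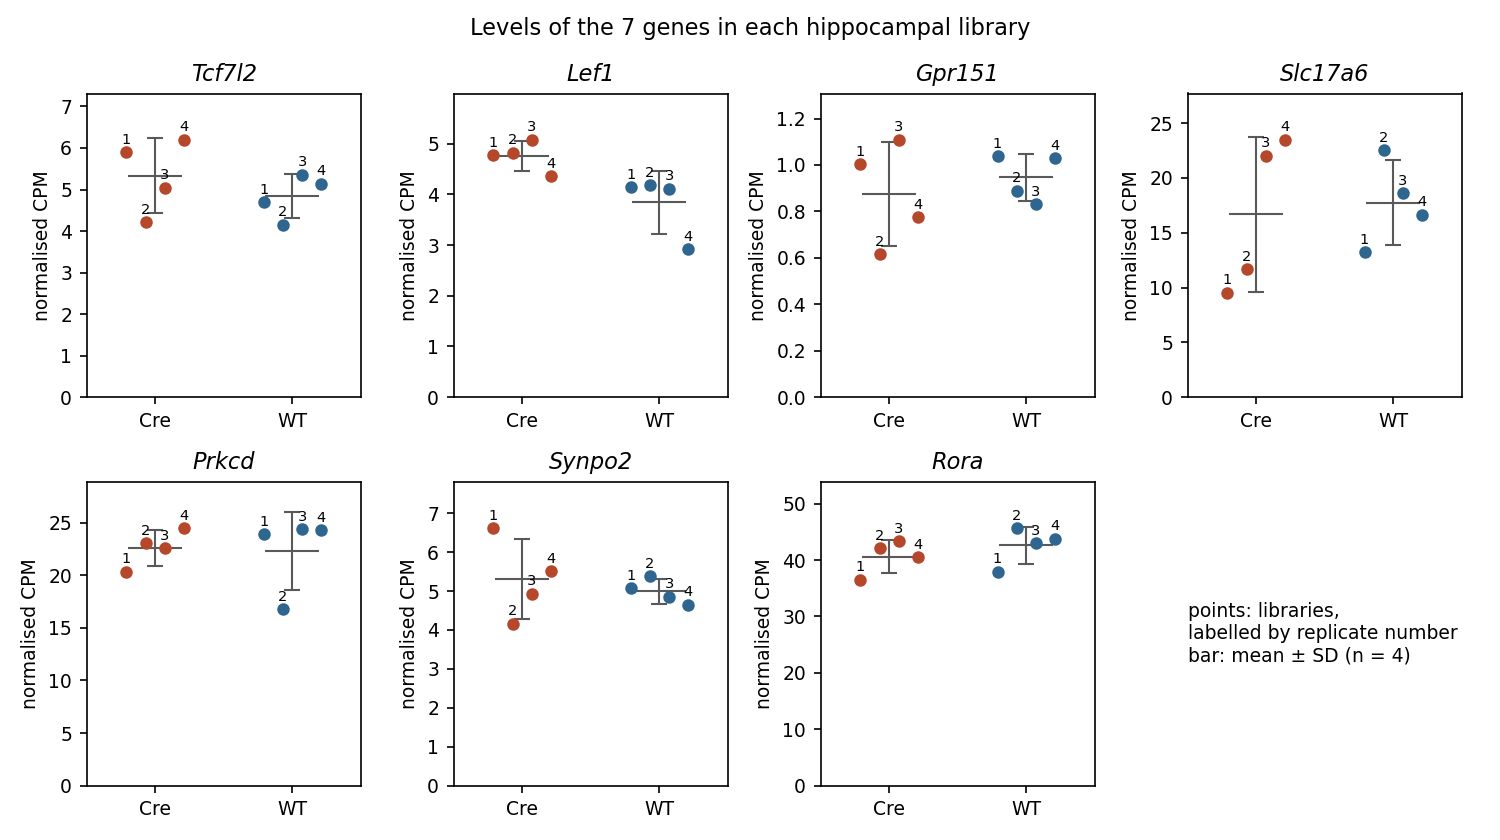
Normalised CPM of each of the 7 genes in the 4 Cre libraries (left, red) and the 4 WT libraries (right, blue), with replicate numbers beside the points and the mean ± SD in grey. Lef1 has no overlap between the groups, while Slc17a6 spans 9.54 to 23.5 CPM among Cre libraries alone.

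The genes whose levels over the 8 libraries most resembled Slc17a6 were Ctgf, Zmat4 and Kcnc4, with Pearson's r of 0.98 each on log2 CPM, given as a description chosen among 14260 genes. Ctgf, which encodes a secreted matrix-associated growth factor and marks the deepest layer of the neocortex, had 4.52, 5.25, 10.9 and 12.6 CPM in Cre replicates 1 to 4, against 5.44, 11.7, 8.02 and 8.15 CPM in WT replicates 1 to 4. Its lowest libraries were Cre replicates 1 and 2 and WT replicate 1, as for Slc17a6. Kcnc4, a voltage-gated potassium channel gene, ran from 72.3 to 97.4 CPM in Cre libraries and from 77.9 to 90.5 CPM in WT libraries, lowest in the same 3 libraries.

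Neocortical markers showed part of the same order. Tbr1, which encodes a factor of deep-layer cortical neurons, had 43.6, 45.8, 52.3 and 56.9 CPM in Cre replicates 1 to 4, against 44.6, 57.6, 48.3 and 50.1 CPM in WT replicates 1 to 4. Fezf2, another deep-layer factor gene, was likewise lowest in Cre replicates 1 and 2, at 41.1 and 43.2 CPM, but not low in WT replicate 1, at 51.0 CPM. The 7 neocortical markers together summed to 170, 167, 205 and 211 CPM in Cre replicates 1 to 4, against 177, 203, 187 and 189 CPM in WT replicates 1 to 4. The part of cortical tissue in the level of Slc17a6 was not tested. Wfs1 and Pou3f1, of the hippocampal excitatory list, were like Slc17a6 lowest in Cre replicates 1 and 2 and WT replicate 1. They were also highest in Cre replicates 3 and 4 and WT replicate 2. Wfs1 had 89.4 to 178 CPM in Cre libraries and 117 to 167 CPM in WT libraries. Pou3f1 had 102 to 143 CPM in Cre libraries and 113 to 130 CPM in WT libraries. The other genes of that list did not share this order, and its source was not tested.

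The thalamic list gave different orders by its sum and by its mean on the log2 scale. Its 11 tested genes summed to 128, 125, 123 and 132 CPM in Cre replicates 1 to 4, against 133, 142, 133 and 122 CPM in WT replicates 1 to 4. By that sum, which the most abundant genes dominate, Cre replicate 3 was below Cre replicate 1, the lowest library for Slc17a6. The mean log2 CPM of the same genes was 2.34, 2.40, 2.47 and 2.62 in Cre replicates 1 to 4, against 2.55, 2.73, 2.41 and 2.24 in WT replicates 1 to 4. By that mean the Cre libraries had the order they had for Slc17a6 and WT replicate 2 was again the highest WT library, while WT replicate 1, the lowest WT library for Slc17a6, was not low. The part of thalamic tissue in the level of Slc17a6 was not tested. Cajal-Retzius cells are neurons of the hippocampal surface that also use VGLUT2. Of 5 listed markers of them 3 were tested, with Reln and Ndnf the most abundant. These 3 summed to 92.0 to 103 CPM in Cre libraries and 90.5 to 101 CPM in WT libraries, with Cre replicate 1 highest. The part of these cells in the level of Slc17a6 was not tested.

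**Figure D3:**
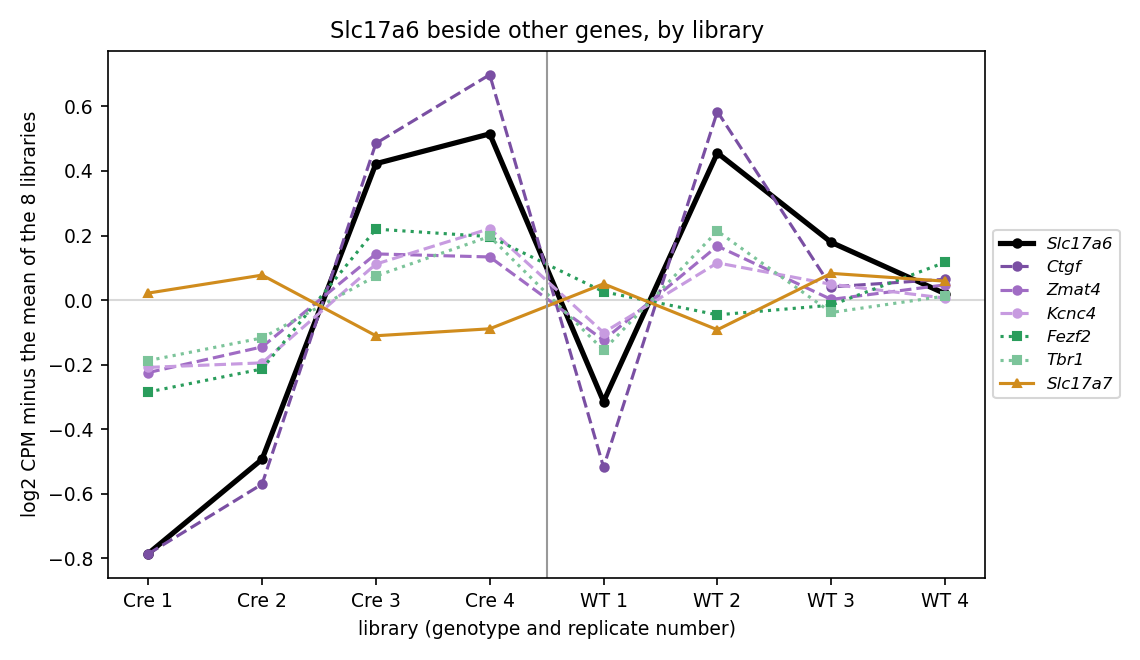
Log2 CPM minus the mean of the 8 libraries (vertical axis) for Slc17a6, the 3 genes most like it, 2 neocortical markers and Slc17a7 in each library (horizontal axis, Cre left of WT). Slc17a6 and Ctgf are low in Cre replicates 1 and 2 and WT replicate 1 and high in Cre replicates 3 and 4 and WT replicate 2, where Slc17a7 is lowest.

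Among vesicular glutamate transporters, Slc17a6 was a small fraction of Slc17a7. Per kb of exon, Slc17a7 stood at 302 CPM in Cre and 313 CPM in WT, against 3.09 in Cre and 3.29 in WT for Slc17a6 and 1.02 in Cre and 0.99 in WT for Slc17a8, the VGLUT3 gene. Slc17a7 had 1682, 1748, 1535 and 1558 CPM in Cre replicates 1 to 4, against 1716, 1555, 1755 and 1726 CPM in WT replicates 1 to 4. The 3 libraries with the highest Slc17a6, Cre replicates 3 and 4 and WT replicate 2, were the 3 with the lowest Slc17a7.

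Gpr151, which encodes an orphan receptor found on habenular axons, was the scarcest gene before division by length. It had 24, 13, 31 and 19 counts in Cre replicates 1 to 4, against 28, 24, 20 and 25 counts in WT replicates 1 to 4, or 0.61 to 1.11 CPM in Cre libraries and 0.83 to 1.04 CPM in WT libraries. The WT libraries lay inside the range of the Cre libraries. Counting alone gives a coefficient of variation of 20.9% at this depth, against 25.5% observed in Cre and 10.8% in WT. The log2 fold change was -0.10 (SE 0.24), and its interval, -34.6% to 33.4%, is wide enough that a difference within it was not detectable at this depth. Gpr151 has a span of 1.77 kb, at 42577881 to 42579652 on the minus strand of chromosome 18.

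The other tested genes of the habenula gave no difference past the threshold. Of 13 listed genes 8 were tested, 0 were called and 0 had an unadjusted p under 0.05 by edgeR, DESeq2 or limma voom, with 5 above 0 and 3 below. Tac1, the substance P gene, had 7.33 ± 1.48 CPM in Cre and 7.32 ± 0.40 CPM in WT. Of the 13 listed thalamic genes 11 were tested, 0 were called by the same tools, 5 lay above 0 and 6 below. Their median log2 fold change was -0.01, within a range of -0.57 (Slitrk6, SE 0.26) to 0.50. Slitrk6 rests on 12 to 19 counts in Cre libraries and 15 to 32 in WT libraries. An unadjusted p under 0.05 was reached by 1 thalamic gene with edgeR, 1 with DESeq2 and 2 with limma voom. Ntng1 alone had an unadjusted p under 0.05 with edgeR and no overlap between the groups, with a log2 fold change of -0.15 (SE 0.05), at 36.3 to 37.9 CPM in Cre libraries and 38.3 to 44.7 CPM in WT libraries.

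Prkcd, which encodes the kinase PKC delta and is strong in thalamic relay neurons, had 20.3, 23.1, 22.6 and 24.5 CPM in Cre replicates 1 to 4, against 23.9, 16.8, 24.4 and 24.3 CPM in WT replicates 1 to 4. The Cre libraries all lay within the WT range apart from Cre replicate 4, and WT replicate 2 was far below the other 7 libraries. Its log2 fold change was 0.02 (SE 0.11), and -0.10 (SE 0.07) without WT replicate 2. Prkcd occupies 30595354 to 30626210 on the minus strand of chromosome 14.

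Microglial markers, given because Prkcd is also a myeloid gene, lay higher in Cre for 10 of 10 genes, of which 6 had an unadjusted p under 0.05 by edgeR and 4 by DESeq2, and 0 were called by edgeR, DESeq2 or limma voom. They summed to 567, 437, 439 and 427 CPM in Cre replicates 1 to 4, against 424, 402, 392 and 411 CPM in WT replicates 1 to 4. Cre replicate 1, the highest by far, had the lowest Prkcd of the Cre libraries. The part of microglia in the level of Prkcd was not tested.

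Prkcd was far less abundant than Prkce, another protein kinase C gene. Per kb of exon it had 4.08 CPM in Cre and 4.03 CPM in WT, against 134 CPM in Cre and 135 CPM in WT for Prkce, which encodes PKC epsilon. Of the 9 isoforms 0 were called and 0 had an unadjusted p under 0.05 by edgeR, DESeq2 or limma voom, 3 lay above 0 and 6 below.

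Synpo2, which encodes myopodin, an actin-binding protein of smooth and striated muscle that is also present in thalamic neurons, had 6.61, 4.16, 4.93 and 5.50 CPM in Cre replicates 1 to 4, against 5.07, 5.37, 4.86 and 4.65 CPM in WT replicates 1 to 4. The WT libraries lay inside the range of the Cre libraries, whose extremes were replicates 1 and 2. Its log2 fold change was 0.09 (SE 0.14), and -0.03 (SE 0.13) without Cre replicate 1. The gene lies on chromosome 3 at 123076519 to 123236149, minus strand.

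Smooth muscle and mural markers are given because Synpo2 is also a gene of smooth muscle. The 9 tested genes of that list summed to 154 to 173 CPM in Cre libraries and 143 to 191 CPM in WT libraries, highest in WT replicate 2, while Synpo2 was highest in Cre replicate 1. Their mean log2 CPM was highest in WT replicate 2 (3.57) and next in Cre replicates 4 and 1 (3.26 and 3.23), the same 3 libraries that were highest for Synpo2. The part of smooth muscle in the level of Synpo2 was not tested. The gene of the related actin-binding protein synaptopodin, Synpo, which belongs to the spine apparatus of pyramidal neurons, was far more abundant, at 24.1 CPM per kb in Cre and 24.5 in WT, against 0.41 in Cre and 0.38 in WT for Synpo2.

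**Figure D4:**
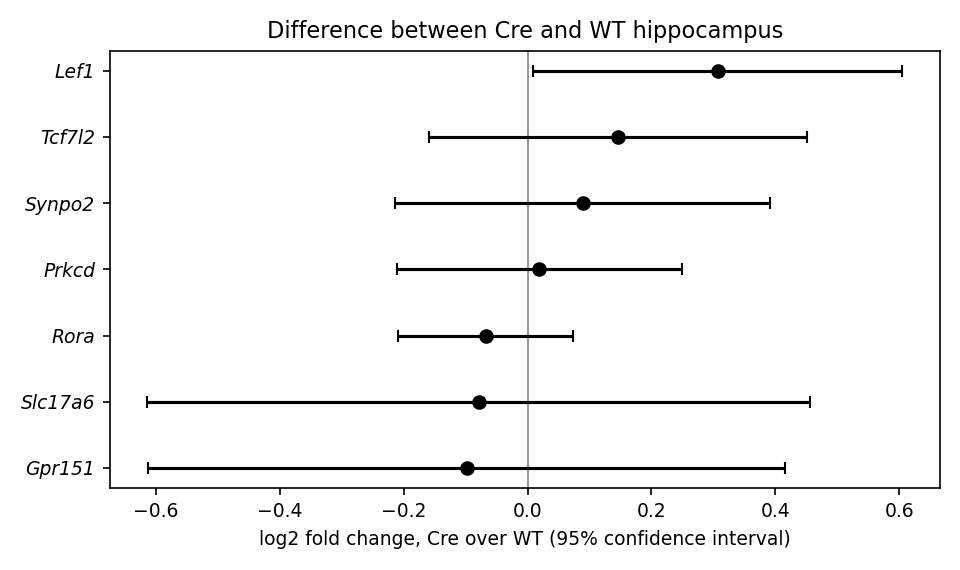
Log2 fold change of Cre over WT (horizontal axis) for each of the 7 genes, with 95% confidence intervals from edgeR's quasi-likelihood fit. Each interval crosses 0 except that of Lef1, at 0.01 to 0.60, and those of Slc17a6 and Gpr151 are the widest.

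Whether the 7 genes vary together from library to library was then examined. Of 21 pairs, 8 had a positive and 13 a negative Pearson's r over the 8 libraries on log2 CPM, and the median r was -0.09. By exact permutation, 0 pairs passed after adjustment over the 21 pairs, with either Pearson's r (lowest adjusted p = 0.914) or Spearman's rho (lowest adjusted p = 0.926), and 0 had an unadjusted p under 0.05.

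The strongest pair was Slc17a6 with Rora. Pearson's r was 0.70 (exact permutation p = 0.0576, adjusted p = 0.914) and Spearman's rho was 0.52 (exact permutation p = 0.197, adjusted p = 0.926). Without the 2 libraries farthest from the median of Slc17a6, r was 0.58, and with group means removed it was 0.68. Tcf7l2 and Synpo2 had r = 0.57 (exact permutation p = 0.134) with rho = 0.40 (exact permutation p = 0.327), and r = 0.82 without the 2 libraries farthest from the median of Tcf7l2. Synpo2 and Rora had the most negative r, -0.56 (exact permutation p = 0.150), with rho = -0.43 (exact permutation p = 0.299) and r = -0.17 without the 2 farthest libraries. All of these had an adjusted p of 0.914 for r and 0.926 for rho.

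**Figure D5:**
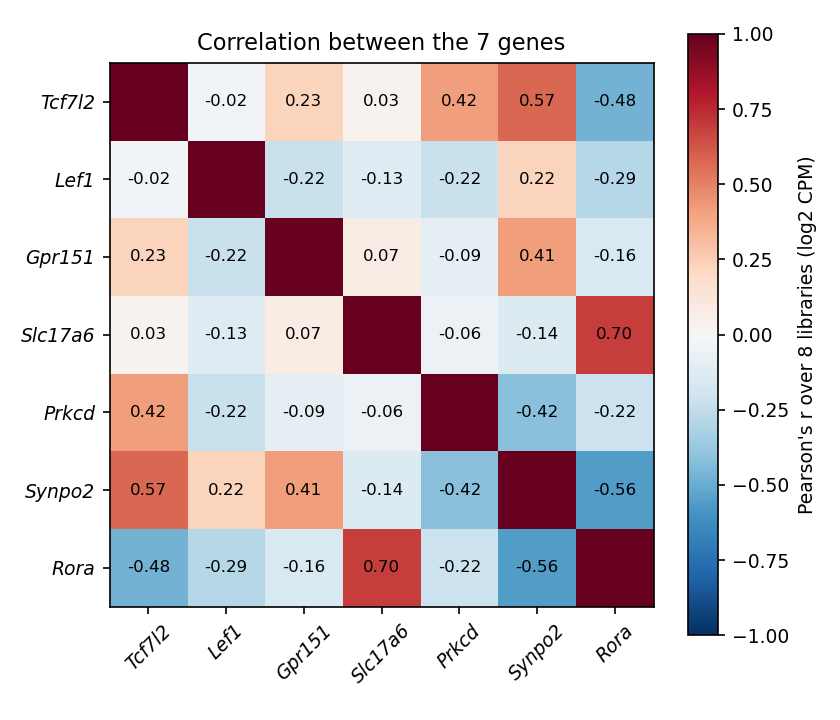
Pearson's r of log2 CPM over the 8 libraries for each of the 21 pairs of the 7 genes (colour and number), from -1 to 1. Values run from -0.56 for Synpo2 with Rora to 0.70 for Slc17a6 with Rora, and 13 of the 21 are negative.

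The library with the highest level differed from gene to gene. Cre replicate 4 was highest for 3 genes (Tcf7l2, Slc17a6 and Prkcd), Cre replicate 3 for Lef1 and Gpr151, Cre replicate 1 for Synpo2 and WT replicate 2 for Rora. WT replicate 2 was at the same time the lowest library for Tcf7l2 and Prkcd. Cre replicate 1 was lowest for Slc17a6 and Rora, Cre replicate 2 for Gpr151 and Synpo2, and WT replicate 4 for Lef1. The gene nearest to the mean of the 7 standardised profiles was Rprm, which encodes the cell-cycle inhibitor Reprimo and was at 22.7 to 31.7 CPM in Cre libraries and 26.1 to 26.7 CPM in WT libraries (Pearson's r = 0.95, as a description among 14260 genes).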

How the data were processed

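Poly(A) RNA of hippocampus was sequenced from directional libraries pooled in a single lane, per the labels' protocols. The authors deposited whole-number counts per gene symbol, not normalized. STAR 2.6.1d, featureCounts and edgeR 3.11 with GRCm38 are named in the submitters' processing notes. Which annotation release was counted, and whether strand was used, is not given in the sources used here. Their own comparison was deposited by the authors as well, with a log2 fold change and log2 abundance, a signed fold, an abundance score and a p-value whose adjustment is not stated. Its values are quoted for Lef1 only.

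Samples were grouped by the titles. The filter on low counts was filterByExpr at a minimum count of 10 and a minimum total of 15. Counts were scaled by TMM and fitted without covariates in edgeR 4.0.16 (R 4.3.3), with Benjamini-Hochberg adjustment over 15859 genes. The filter kept 15859 genes, all 7 described among them, with at least 99.9% of the counts of each library. DESeq2 1.42.0, limma 3.58.1 (voom), size factors by RLE, no filter, a replicate block and omission of each library were alternatives. Exact permutation tests used SciPy 1.17.1 on log2 CPM with a prior count of 2. The fit was tested on simulated data. The median SE of a log2 fold change was 0.07. Reads carry no molecular identifiers, so counting errors and floors cover counting only. Positions and exon lengths are from GENCODE M21 (GRCm38).

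The genes and lists were chosen with earlier results of these data known. From each list, named genes are the 2 with the smallest p and the 2 with the highest CPM. Likeness named the 3 genes nearest to each of the 7 and the 10 nearest to their mean, at a mean log2 CPM of at least 0. Gbx2, Shox2, Pou4f1, Chrna3, Chrnb4, Axin2, Tcf7, Wfs1 and Pou3f1 were added after their values were seen.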

Additional observations from a re-analysis of the deposited data

Results flagged for a closer look

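In 2 of the 14 groups of 4 libraries formed by the 7 genes and both genotypes, 1 library lay apart from the other 3 by more than Dixon's 95% limit of 0.829 for its gap over the range. Chance flags about 1 in 20 such groups. WT replicate 4 had 2.92 CPM of Lef1, with a gap of 0.939 of the WT range. WT replicate 2 had 16.8 CPM of Prkcd, with a gap of 0.940 of the WT range.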

How the results depend on the processing

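Over 13 alternatives the count of genes past the threshold ran from 4 to 7 around 5, at 4 to 6 when 1 library was left out, and 0 of the 7 genes passed in any of them (lowest adjusted p = 0.891, without the filter on low counts). Of 91 refitted fold changes of the 7 genes, 84 kept their sign and 7 did not, all 7 with 1 library left out. The cause of those changes was not tested beyond the library omitted. When 1 library was left out, log2 fold changes ran from -0.28 to 0.11 for Slc17a6, from -0.24 to 0.027 for Gpr151, from -0.10 to 0.067 for Prkcd and from -0.033 to 0.18 for Synpo2. They ran from 0.07 to 0.24 for Tcf7l2, from 0.20 to 0.35 for Lef1 and from -0.12 to -0.02 for Rora without a change of sign. The exact permutation test had p under 0.05 for 1 gene, Lef1, also with a prior count of 0.5 and with RLE size factors. For Lef1 this p follows from the lack of overlap between the groups and adds nothing to it. It was not adjusted over the 7 genes. With 3 libraries against 4 it cannot go below 0.0571, so it was not repeated with a library left out. The count of correlated pairs was 0 with a prior count of 0.5 and with each library left out. With the replicate number as a block, 6 genes passed and the log2 fold change of Lef1 was 0.31 (adjusted p = 0.999 by edgeR). Same-numbered Cre and WT libraries had correlations of 0.20, -0.11, 0.02 and 0.02 between their deviations from the group means, so the numbers were not taken as pairs, and not every library correlated best with its own number. Depth limits Gpr151 most, at 13 to 31 counts a library.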
